A study of Mus musculus with 6 samples.

Results

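The drug-metabolising cytochrome P450 genes of families 1 to 3 were described in mouse liver 6 h after a hormone injection, together with regulators of these genes. The members were the genes whose symbol starts with Cyp1, Cyp2 or Cyp3 followed by a letter, except Cyp2c70, a bile acid hydroxylase, and the regulators Nr1i2, Nr1i3, Ahr, Por and Tiparp. Only probe sets paired with exactly 1 gene were used. This gave 38 P450 genes on 45 probe sets and 4 regulators on 8 probe sets, 42 members out of 12393 genes that have their own probe set. Por was not analysed here, and 2 further P450 probe sets that are each paired with several genes were given no name. Of the 42 members, 36 passed the filter on low signals and were tested, 32 P450 genes and 4 regulators.

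Gene expression was measured on 1-colour Affymetrix mouse arrays, with 2 arrays in each of 3 groups. All mice were wild-type C57Bl/6 males from Jackson Laboratories, and livers were collected after 6 h without food. A jugular vein injection delivered vehicle to the controls, purified FGF15 to another group and recombinant FGF19 to the third. Age, dose and what the vehicle held are not stated in the sources used. Since no label ties the arrays to separate mice, the p-values cover the spread from array to array, and that spread may be technical.

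FGF15 is a hormone of the mouse ileum and FGF19 is its human counterpart, and both lower bile acid synthesis in hepatocytes through FGFR4 and β-Klotho. P450s of families 1 to 3 are heme enzymes of the endoplasmic reticulum that oxidise drugs, steroids, fatty acids and other small molecules, with electrons delivered by the reductase Por. Their transcription in liver is set largely by ligand-responsive factors. The aryl hydrocarbon receptor (AHR, gene Ahr) drives Cyp1 genes and its own repressor Tiparp, and the nuclear receptors CAR (gene Nr1i3) and PXR (gene Nr1i2) drive Cyp2b, Cyp2c and Cyp3a genes. Several of these P450s also differ between male and female mice through growth hormone.

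The deposited signals had been brought to the same trimmed mean of 200.1 on each array, and fold changes here are differences of log2(signal + 32), which understate the change of dim probe sets. Values are per array in the order of the labels' replicate numbers, errors are limma's standard errors (SE) with n = 2 arrays per group, and adjusted p-values are limma's after Benjamini-Hochberg adjustment over 9692 genes. A gene is said to have risen or fallen at an adjusted p under 0.05. The comparisons with vehicle share the vehicle arrays. FGF19 replicate 1 stood apart in some control values: its 3′ to 5′ signal ratio for β-actin was 1.63 against 1.30 to 1.39 on the other arrays. The median signal of the 227 brightest probe sets was 5867 on that array and 6481 to 7220 on the others. Within a group, log2 signals correlated between arrays at r = 0.988 to 0.992 across probe sets, which are not independent replicates.

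Cyp2b10, Cyp2b9 and Nr1i3, the genes taken as markers of this part of the data, all rose with FGF15. Of these Cyp2b10 rose with FGF19. The activity of CAR was not measured. Among the 32 P450 genes tested, 8 rose and 1 fell with FGF15, which is 28.1%, while 12.5% of all genes tested were called in that comparison (5.87% higher and 6.64% lower). With FGF19, 5 rose and 5 fell, which is 31.2%, against 13.5% of all genes (6.27% higher and 7.26% lower). The median log2 difference over the P450 genes was 0.05 with FGF15 and −0.06 with FGF19, beside −0.05 and −0.07 over all genes tested. Between the hormones, 6 P450 genes were lower with FGF19 than with FGF15, 18.8% against 4.29% of all genes (2.4% higher and 1.89% lower). By limma none was higher, and none was higher at an unadjusted p under 0.05 either. The median over the P450 genes in that comparison was −0.14, with 28 of 32 below 0, beside −0.02 over all genes. Other liver genes, counted in lists below, leaned the same way. Of 12 hepatocyte markers 10 lay below 0 and 2 above (median −0.125, 1 called higher by limma). Of 14 pericentral markers 12 lay below 0 and 2 above (median −0.179, 4 called lower by limma, 1 with no filter on low signals). Targets of CAR and PXR outside the P450s leaned the other way, with 17 above 0 and 6 below.

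The scaling of the arrays bears on the smaller of these values. When each array was centred on its median, the median of all genes became 0.07 for either hormone against vehicle, a shift of over 0.1, and the share of called genes that were higher went from 46.9% to 73.9% with FGF15 and from 46.3% to 78.7% with FGF19. The P450 median then became 0.17 with FGF15 and, with its sign turned, 0.09 with FGF19, and the counts became 13 higher and 0 lower with FGF15 and 9 higher and 1 lower with FGF19. Leaving out FGF19 replicate 1 or 2 gave 13 higher and 5 lower with FGF15. Without vehicle replicate 1 no P450 gene fell with either hormone, without vehicle replicate 2 none fell with FGF15 and 1 fell with FGF19, and without FGF15 replicate 1 or 2 none fell with FGF15. With FGF19, 3 P450 genes rose without either vehicle array or without FGF19 replicate 2, and 3 fell without FGF19 replicate 1.

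The regulators differed between the hormones. Nr1i3, which encodes CAR, rose with FGF15, Nr1i2, which encodes PXR, fell with FGF15, and Tiparp, an ADP-ribosyltransferase that represses AHR, rose with FGF19. The signal of Nr1i3 was 256.2 and 279.8 with vehicle, 442.4 and 441.0 with FGF15 and 318.0 and 334.2 with FGF19. The groups did not overlap, with FGF15 highest and FGF19 between. The log2 difference was 0.66 ± 0.08 for FGF15 against vehicle (adjusted p = 0.000564), 0.26 ± 0.08 for FGF19 against vehicle (adjusted p = 0.0626) and −0.40 ± 0.08 for FGF19 against FGF15 (adjusted p = 0.0183).

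For Nr1i2 the signal was 198.0 and 204.4 with vehicle, 139.8 and 153.4 with FGF15 and 226.0 and 218.2 with FGF19. Here the FGF15 arrays lay below vehicle and the FGF19 arrays above it. Nr1i2 fell with FGF15 by 0.39 ± 0.09 on the log2 scale (adjusted p = 0.0246), its difference with FGF19 was 0.12 ± 0.09 (adjusted p = 0.427), and it was higher with FGF19 than with FGF15 by 0.51 ± 0.09 (adjusted p = 0.0124). Its other probe set gave −0.49 with FGF15, 0.08 with FGF19 and 0.57 between the hormones. The fall of Nr1i2 with FGF15 lost its call after centring (adjusted p = 0.125) without vehicle replicate 1 (0.0991) or 2 (0.123) and without FGF15 replicate 1 (0.1). The difference of Nr1i2 between the hormones lost its call without FGF15 replicate 1 (adjusted p = 0.0729), FGF19 replicate 1 (0.112) or FGF19 replicate 2 (0.0609), and that of Nr1i3 without FGF15 replicate 1 (0.0839), FGF15 replicate 2 (0.0725), FGF19 replicate 1 (0.134) or FGF19 replicate 2 (0.0602).

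Tiparp had signals of 132.0 and 138.3 with vehicle, 132.5 and 133.6 with FGF15 and 555.4 and 577.2 with FGF19. The FGF15 arrays fell inside the vehicle range and the FGF19 arrays stood far above both. The log2 difference was 1.84 ± 0.09 with FGF19 (adjusted p = 9.42e-07), −0.02 ± 0.09 with FGF15 (adjusted p = 0.926) and 1.86 ± 0.09 between the hormones (adjusted p = 2.58e-06). On the other Tiparp probe sets the difference between the hormones was 1.59 and 1.71. Ahr, the receptor that Tiparp represses, was not called in any comparison: its signal was 684.7 and 804.4 with vehicle, 619.0 and 664.4 with FGF15 and 752.3 and 782.8 with FGF19.

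**Figure D1:**
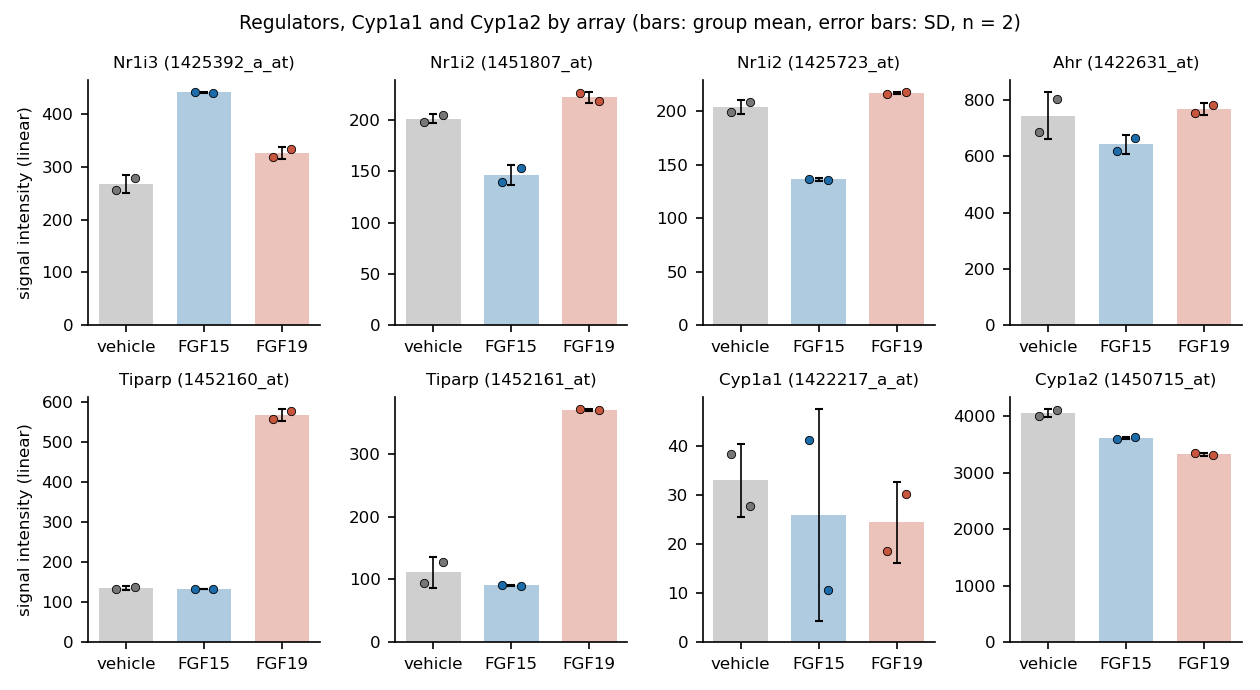
Linear signal intensity (vertical axes) of regulators and of Cyp1a1 and Cyp1a2 with vehicle, FGF15 and FGF19, 1 panel per probe set. Points are arrays, bars are group means and error bars are SD with n = 2; on the representative probe set Tiparp is 132.0 to 138.3 with vehicle and FGF15 and 555.4 or more with FGF19, and Cyp1a1 overlaps between groups.

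The Cyp1 genes, the classical AHR targets, did not rise beside Tiparp. Cyp1a1, which oxidises polycyclic aromatic hydrocarbons, had signals of 38.3 and 27.8 with vehicle, 41.2 and 10.6 with FGF15 and 18.6 and 30.3 with FGF19. The groups overlapped, and the difference with FGF19 was −0.21 ± 0.25, with a 95% interval from −0.77 to 0.36. Cyp1a2, the caffeine-metabolising enzyme of hepatocytes, had signals of 4009 and 4107 with vehicle, 3601 and 3626 with FGF15 and 3342 and 3309 with FGF19. It fell with FGF19 by 0.28 ± 0.06 (adjusted p = 0.0129), and its difference with FGF15 was −0.17 ± 0.06 (adjusted p = 0.114). The call for Cyp1a2 was lost after centring (adjusted p = 0.288) and without vehicle replicate 1 (0.0939) or vehicle replicate 2 (0.117), and without FGF19 replicate 1 or 2 its difference with FGF15 was called (0.0475 and 0.0465). Cyp1b1 was under the filter with all 3 of its probe sets.

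The promoters of Tiparp and Cyp1a1 are shown since both genes are known AHR targets and here only Tiparp rose. Each run is the 250 bases before the annotated start in RefSeq GRCm38.p6, at chr3:65528197-65528446 for Tiparp and chr9:57697363-57697612 for Cyp1a1, both on the + strand. Capitals mark GCGTG, the core of the AHR response element, searched on both strands.
Tiparp: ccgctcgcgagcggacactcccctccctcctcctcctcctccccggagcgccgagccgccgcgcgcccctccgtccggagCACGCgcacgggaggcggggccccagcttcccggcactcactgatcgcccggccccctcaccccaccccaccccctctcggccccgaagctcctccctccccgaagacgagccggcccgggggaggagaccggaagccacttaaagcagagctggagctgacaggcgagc
Cyp1a1: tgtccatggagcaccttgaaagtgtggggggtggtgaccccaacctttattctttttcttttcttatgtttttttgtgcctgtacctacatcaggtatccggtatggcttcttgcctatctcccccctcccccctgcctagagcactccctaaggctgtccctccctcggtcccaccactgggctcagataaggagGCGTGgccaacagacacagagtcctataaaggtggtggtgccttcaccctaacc
In Tiparp the match is on the opposite strand and begins 170 bases before the start, and in Cyp1a1 it begins 54 bases before the start. The same letters occur in 28.2% of the 32851 promoter windows of this length, and in 6 of the 31 P450 genes with a window. A match is a description of the sequence and was not tested as a site.

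Both Cyp2b genes tested rose with FGF15. Cyp2b10, the main CAR target of mouse liver, rose with both, and Cyp2b9, a female-biased relative, rose only with FGF15, with the difference between the hormones itself called. The signal of Cyp2b10 was 1267 and 1220 with vehicle, 3264 and 3031 with FGF15 and 2615 and 2439 with FGF19. The 3 groups did not overlap, and the vehicle arrays were lowest. Cyp2b10 rose by 1.32 ± 0.07 with FGF15 (adjusted p = 2.58e-06) and by 1.00 ± 0.07 with FGF19 (adjusted p = 1.26e-05).

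Between the hormones, Cyp2b10 was lower with FGF19 by −0.31 ± 0.07 (adjusted p = 0.0326). That call was lost after centring (adjusted p = 0.0751) and without any of the arrays except FGF19 replicate 1: the value was 0.0765 without vehicle replicate 1, 0.0776 without vehicle replicate 2, 0.212 without FGF15 replicate 1, 0.0606 without FGF15 replicate 2 and 0.0965 without FGF19 replicate 2. The other Cyp2b10 probe sets rose by 1.35 and 1.53 with FGF15 and by 1.06 and 1.35 with FGF19. Between the hormones they differed by −0.29 (adjusted p = 0.0854 among all probe sets) and −0.18 (0.334), neither of them called. The representative probe set and the first of the others carry the suffix _s_at and can hybridise with related Cyp2b transcripts, and the last carries no such mark.

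For Cyp2b9 the signal was 32.4 and 23.8 with vehicle, 169.9 and 161.3 with FGF15 and 35.5 and 36.0 with FGF19. The FGF15 arrays stood far above the other 4, and the FGF19 arrays lay just above vehicle. Cyp2b9 rose by 1.72 ± 0.14 with FGF15 (adjusted p = 4.58e-05), its difference with FGF19 was 0.18 ± 0.14 (adjusted p = 0.452), and it was lower with FGF19 than with FGF15, with a difference of −1.54 ± 0.14 (adjusted p = 0.000202). The calls of Cyp2b9 held under all 17 alternatives. Cyp2b13, the neighbour of Cyp2b9 in the gene order, was under the filter, with signals of 1.14 to 10.6, and Cyp2b19, a gene of skin, was too.

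The Cyp2b promoters are shown since Cyp2b9 and Cyp2b10 both rose with FGF15 while Cyp2b13 was under the filter. The windows are the 250 bases before the start in RefSeq GRCm38.p6, all on the + strand: chr7:26173159-26173408 for Cyp2b9, chr7:26061245-26061494 for Cyp2b13 and chr7:25897408-25897657 for Cyp2b10. Capitals mark AGGTCA, a core hexamer bound by nuclear receptors such as CAR and PXR, and TTGCNNAA, a C/EBP-type motif, both searched on both strands. The motifs do not overlap here.
Cyp2b9: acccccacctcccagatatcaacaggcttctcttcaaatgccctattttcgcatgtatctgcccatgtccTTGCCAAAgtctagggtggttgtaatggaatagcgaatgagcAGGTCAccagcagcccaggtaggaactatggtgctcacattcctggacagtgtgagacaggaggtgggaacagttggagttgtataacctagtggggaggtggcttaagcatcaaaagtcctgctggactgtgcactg
Cyp2b13: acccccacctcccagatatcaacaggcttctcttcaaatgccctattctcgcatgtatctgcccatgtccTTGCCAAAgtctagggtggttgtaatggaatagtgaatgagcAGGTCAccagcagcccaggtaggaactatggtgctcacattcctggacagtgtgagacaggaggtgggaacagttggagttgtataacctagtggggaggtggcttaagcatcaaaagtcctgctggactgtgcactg
Cyp2b10: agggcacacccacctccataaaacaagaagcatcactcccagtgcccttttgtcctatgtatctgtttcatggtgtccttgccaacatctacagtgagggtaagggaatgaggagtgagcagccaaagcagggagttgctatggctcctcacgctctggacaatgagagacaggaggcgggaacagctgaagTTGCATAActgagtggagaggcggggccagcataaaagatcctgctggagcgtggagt
The windows of Cyp2b9 and Cyp2b13 were identical at 248 of 250 bases (99.2%). They differ by T48C and C104T, with the Cyp2b9 base first, the position counted from 1 at the 5′ end of the window, and the Cyp2b13 base last. In both, TTGCNNAA begins 180 and AGGTCA 138 bases before the start. The Cyp2b10 window was 71% identical to that of Cyp2b9 when aligned, and in it TTGCNNAA begins 58 bases before the start and AGGTCA was not found. Among all windows, 14% hold AGGTCA and 9.56% hold TTGCNNAA, and among the 31 P450 genes with a window 10 and 7 do. The variant AGTTCA occurs in 11.8% of all windows and in 3 of the P450 genes. The distal enhancer of Cyp2b10 known to bind CAR lies outside these windows.

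The Cyp2c genes make epoxides and alcohols of fatty acids and metabolise many drugs. Among 9 tested, 4 rose with FGF15, namely Cyp2c23, Cyp2c37, Cyp2c38 and Cyp2c54. Of all genes tested, 5.87% were higher with FGF15 and 6.27% with FGF19. With FGF19, Cyp2c37 and Cyp2c54 rose by less, with the difference between the hormones called. Cyp2c23 and Cyp2c38 rose with FGF19 too, and that difference was not called for either. The signal of Cyp2c38, an arachidonic acid epoxygenase, was 128.0 and 128.7 with vehicle, 388.6 and 342.3 with FGF15 and 312.1 and 301.4 with FGF19. The hormone arrays stood apart from vehicle, and FGF15 was highest. Cyp2c38 rose by 1.31 ± 0.09 with FGF15 (adjusted p = 1.39e-05) and by 1.08 ± 0.09 with FGF19 (adjusted p = 4.49e-05), and the difference between the hormones was −0.23 ± 0.09 (adjusted p = 0.237), with a 95% interval from −0.43 to −0.03 and no overlap of their arrays. Cyp2c39, the tested gene next to it in the gene order, differed by 0.01 and −0.20 from vehicle, and Cyp2c29, on the other side of Cyp2c39, by 0.15 and 0.06, none of them called. Cyp2c39 was dim, with signals of 9.19 to 57.1 and an SE of 0.35, so only large changes of it were detectable.

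Cyp2c37, an enzyme that hydroxylates arachidonic acid, had signals of 1946 and 1821 with vehicle, 3403 and 3550 with FGF15 and 2246 and 2169 with FGF19. FGF15 arrays were highest and FGF19 arrays lay just above vehicle. It rose by 0.87 ± 0.07 with FGF15 (adjusted p = 2.44e-05) and by 0.23 ± 0.07 with FGF19 (adjusted p = 0.0482), and was lower with FGF19 than with FGF15, with a difference of −0.65 ± 0.07 (adjusted p = 0.000375). Cyp2c54, next to it in the gene order, had signals of 1464 and 1268 with vehicle, 2478 and 2908 with FGF15 and 1652 and 1822 with FGF19. It rose by 0.96 ± 0.10 with FGF15 (adjusted p = 0.000176) and by 0.34 ± 0.10 with FGF19 (adjusted p = 0.0426), and was lower with FGF19 than with FGF15, with a difference of −0.62 ± 0.10 (adjusted p = 0.00471).

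Cyp2c50, the next gene after Cyp2c54, had signals of 5638 and 5696 with vehicle, 6401 and 6487 with FGF15 and 5099 and 5298 with FGF19. The FGF15 arrays lay above vehicle and the FGF19 arrays below it. Neither difference from vehicle passed the test, 0.18 ± 0.06 with FGF15 (adjusted p = 0.0942) and −0.12 ± 0.06 with FGF19 (adjusted p = 0.239), while the difference between the hormones was −0.31 ± 0.06 (adjusted p = 0.0243). These 3 genes are close relatives: the promoter windows of Cyp2c37 and Cyp2c50 were 84.3% identical, and the probe sets may share signal, which was not tested.

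The smaller Cyp2c calls were not robust to the loss of an array. With FGF19 against vehicle, the adjusted p of Cyp2c37 was between 0.0535 and 0.266 without any of the 6 arrays in turn, and that of Cyp2c54 was 0.0607 without vehicle replicate 1, 0.246 without vehicle replicate 2, 0.06 without FGF19 replicate 1 and 0.183 without FGF19 replicate 2. For Cyp2c50 between the hormones it was 0.094 after centring, 0.0819 and 0.0829 without vehicle replicate 1 or 2, and 0.142 and 0.137 without FGF15 replicate 1 or 2. Without FGF19 replicate 1 or 2, Cyp2c50 (0.0241 and 0.0231) and Cyp2c29 (0.0483 and 0.0468) were called higher with FGF15 than with vehicle.

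Cyp2c23, an epoxygenase also strong in kidney, rose alike with both hormones. Its signal was 1549 and 1583 with vehicle, 2169 and 2234 with FGF15 and 2146 and 2346 with FGF19, so that the hormone groups overlapped each other and neither overlapped vehicle. The differences were 0.48 ± 0.07 with FGF15 (adjusted p = 0.00123) and 0.51 ± 0.07 with FGF19 (adjusted p = 0.000842), and that between the hormones was 0.03 ± 0.07, with a 95% interval from −0.12 to 0.18. Its probe set has the suffix _s_at and can hybridise with related transcripts. Cyp2c55 and Cyp2c68 were not called in any comparison, and Cyp2c65, a gene of the intestine, was under the filter.

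**Figure D2:**
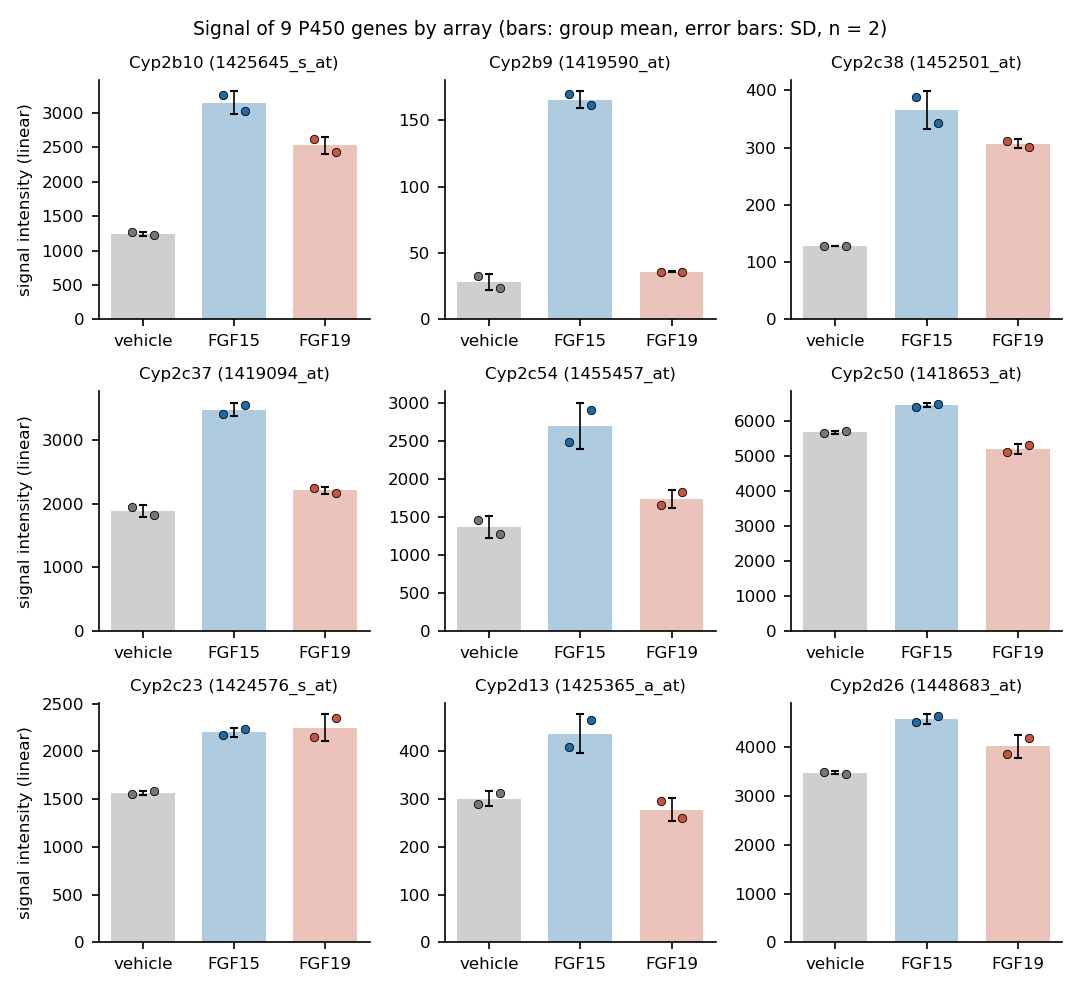
Linear signal intensity (vertical axes) of 9 P450 genes with vehicle, FGF15 and FGF19, 1 panel per gene. Points are arrays, bars are group means and error bars are SD with n = 2; Cyp2b9 is 161.3 or more with FGF15 and 36.0 or less on the other 4 arrays, and Cyp2c23 is 2146 or more with either hormone.

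Among 7 Cyp2d genes tested, relatives of the human debrisoquine hydroxylase, Cyp2d13 and Cyp2d26 rose and Cyp2d9 fell with FGF15. Cyp2d9 also fell with FGF19. Of all genes tested, 12.5% were called with FGF15 and 13.5% with FGF19. The signal of Cyp2d26 was 3492 and 3450 with vehicle, 4501 and 4635 with FGF15 and 3843 and 4172 with FGF19. The groups did not overlap and FGF15 was highest. It rose by 0.39 ± 0.07 with FGF15 (adjusted p = 0.00419), and its difference with FGF19 was 0.20 ± 0.07 (adjusted p = 0.0747). The difference with FGF19 was called by limma after quantile normalization (adjusted p = 0.00274) and after centring (0.0124). Cyp2d9, a male-biased steroid hydroxylase, had signals of 5557 and 5747 with vehicle, 4678 and 4924 with FGF15 and 4563 and 4526 with FGF19. It fell by 0.23 ± 0.07 with FGF15 (adjusted p = 0.0433) and by 0.31 ± 0.07 with FGF19 (adjusted p = 0.011).

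Cyp2d13 gave unlike answers on its probe sets. On the representative probe set its signal was 289.0 and 311.0 with vehicle, 407.6 and 464.2 with FGF15 and 294.7 and 259.8 with FGF19, a rise of 0.49 ± 0.09 with FGF15 (adjusted p = 0.00795) and a difference of −0.60 ± 0.09 between the hormones (adjusted p = 0.00537). On the other probe set the difference was −0.05 with FGF15, and with FGF19 it was −0.43 (adjusted p = 0.0218 among all probe sets), against −0.10 on the first. Between the hormones the other probe set gave −0.38, which was not called (adjusted p = 0.0781 among all probe sets).

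The Cyp2d calls against vehicle were sensitive to single arrays. The rise of Cyp2d13 was lost without vehicle replicate 1 (adjusted p = 0.0732) or FGF15 replicate 2 (0.0605), and that of Cyp2d26 without vehicle replicate 1 (0.0516) or vehicle replicate 2 (0.0563). The fall of Cyp2d9 with FGF15 was lost without any 1 of the vehicle or FGF15 arrays (0.117 to 0.243) and after centring (0.424), and its fall with FGF19 without vehicle replicate 1 (0.0804) or vehicle replicate 2 (0.112) and after centring (0.228). Cyp2d10, Cyp2d12, Cyp2d22 and Cyp2d34 were not called in any comparison.

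Further P450 genes had lower mean signals with FGF19 than with vehicle. Cyp2e1, the ethanol-oxidising enzyme of pericentral hepatocytes, had signals of 11058 and 11721 with vehicle, 8913 and 10173 with FGF15 and 7307 and 9878 with FGF19. The lowest of these was FGF19 replicate 1, and the difference with FGF19 was −0.42 ± 0.13 (adjusted p = 0.0552), while without FGF19 replicate 2 it was −0.64 (adjusted p = 0.00163). Cyp3a11, the main PXR target that metabolises steroids and many drugs, had signals of 10284 and 10219 with vehicle, 9326 and 9707 with FGF15 and 7217 and 9553 with FGF19. Its difference with FGF19 was −0.30 ± 0.11 (adjusted p = 0.11), and −0.50 without FGF19 replicate 2 (adjusted p = 0.000561).

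Cyp2f2, an enzyme best known for the oxidation of naphthalene and a periportal marker, had signals of 7302 and 7100 with vehicle, 6028 and 6259 with FGF15 and 4845 and 5687 with FGF19. It fell with FGF19 by 0.45 ± 0.08 (adjusted p = 0.00584), also after centring, and its difference with FGF15 was −0.23 ± 0.08 (adjusted p = 0.109). The replicate 1 array of FGF19 was again the lowest of the 6. The summed signal of 12 hepatocyte markers was 104670 and 102650 with vehicle, 89826 and 96560 with FGF15 and 78238 and 97094 with FGF19. Their brightest genes weigh most in this sum. Taken singly, 1 marker fell with FGF15 (Tat) and 1 with FGF19 (Hpx) by limma. At an unadjusted p under 0.05, 1 was lower with FGF15 and 8 were lower with FGF19, and 0 were higher with either. With FGF15, 2 lay above vehicle and 10 below, and with FGF19 3 above and 9 below, with medians of −0.15 and −0.25. The part of hepatocyte content, RNA quality or array brightness in these falls was not tested, and in whole liver fewer cells of a type and less RNA per cell cannot be told apart.

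Cyp2j6 and Cyp3a25 also fell with FGF19. Cyp2j6, an epoxygenase, had signals of 236.9 and 245.9 with vehicle, 242.4 and 185.4 with FGF15 and 180.3 and 161.6 with FGF19, a fall of 0.43 ± 0.12 with FGF19 (adjusted p = 0.0403). Cyp3a25, a testosterone hydroxylase of liver and gut, had signals of 5928 and 5406 with vehicle, 4936 and 4636 with FGF15 and 4645 and 4806 with FGF19, a fall of 0.26 ± 0.07 with FGF19 (adjusted p = 0.0417). With FGF15 the difference of Cyp3a25 was −0.24 ± 0.07 (adjusted p = 0.0576), with an interval from −0.18 to 0.14 for the difference between them.

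These calls were weak. The fall of Cyp2j6 was lost after centring (adjusted p = 0.125) and without either vehicle array (0.133 and 0.155) or either FGF19 array (0.0914 and 0.193), and that of Cyp3a25 after centring (0.412) and without any array but FGF19 replicate 2 (0.0631 to 0.311). The fall of Cyp2f2 was lost without vehicle replicate 1 (0.0692). Without either FGF19 array, Cyp2e1 (0.0354 and 0.035), Cyp2f2 (0.0123 and 0.012) and Cyp3a25 (0.0301 and 0.0294) were called lower with FGF15, and Cyp2a12 (0.0359 and 0.0353), Cyp2j5 (0.0278 and 0.0274) and Cyp3a13 (0.0386 and 0.0381) higher. Without FGF19 replicate 2, Cyp2e1 (0.0366), Cyp2f2 (0.0117) and Cyp3a11 (0.00477) were called lower with FGF19 than with FGF15.

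The remaining members were not called in any comparison. Cyp2a12, a testosterone hydroxylase, Cyp2j5, an epoxygenase of liver and kidney, and Cyp3a13 had differences of 0.19, 0.21 and 0.20 with FGF15. Cyp2g1, Cyp2j9, Cyp2s1 and Cyp3a44 had signals under 82 on every array and standard errors of 0.14 to 0.25, so only large changes were detectable. The same holds for Cyp2c39, Cyp2d12 and Cyp2d34, with standard errors of 0.35, 0.20 and 0.29. Cyp2g1, an olfactory P450, differed by −0.56 with FGF19 (adjusted p = 0.121). The 6 P450 genes under the filter, Cyp1b1, Cyp2b13, Cyp2b19, Cyp2c65, Cyp2j13 and Cyp3a16, had signals of 0.467 to 21.3.

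**Figure D3:**
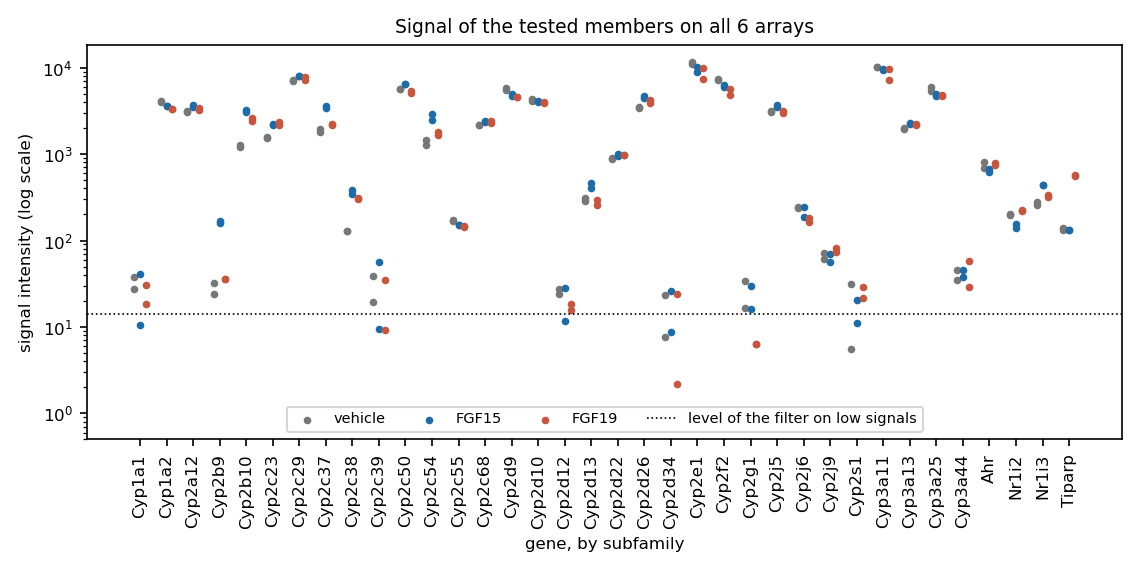
Signal intensity on a log axis of each tested member (horizontal axis, by subfamily) on the 6 arrays; points are arrays coloured by group, and the dotted line is the filter on low signals, a mean of about 14.0. Levels of different genes are from different probe sets and are not compared; FGF15 and FGF19 points stand apart from vehicle for Cyp2b10 and Cyp2c38, and FGF15 points alone stand far above for Cyp2b9.

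**Figure D4:**
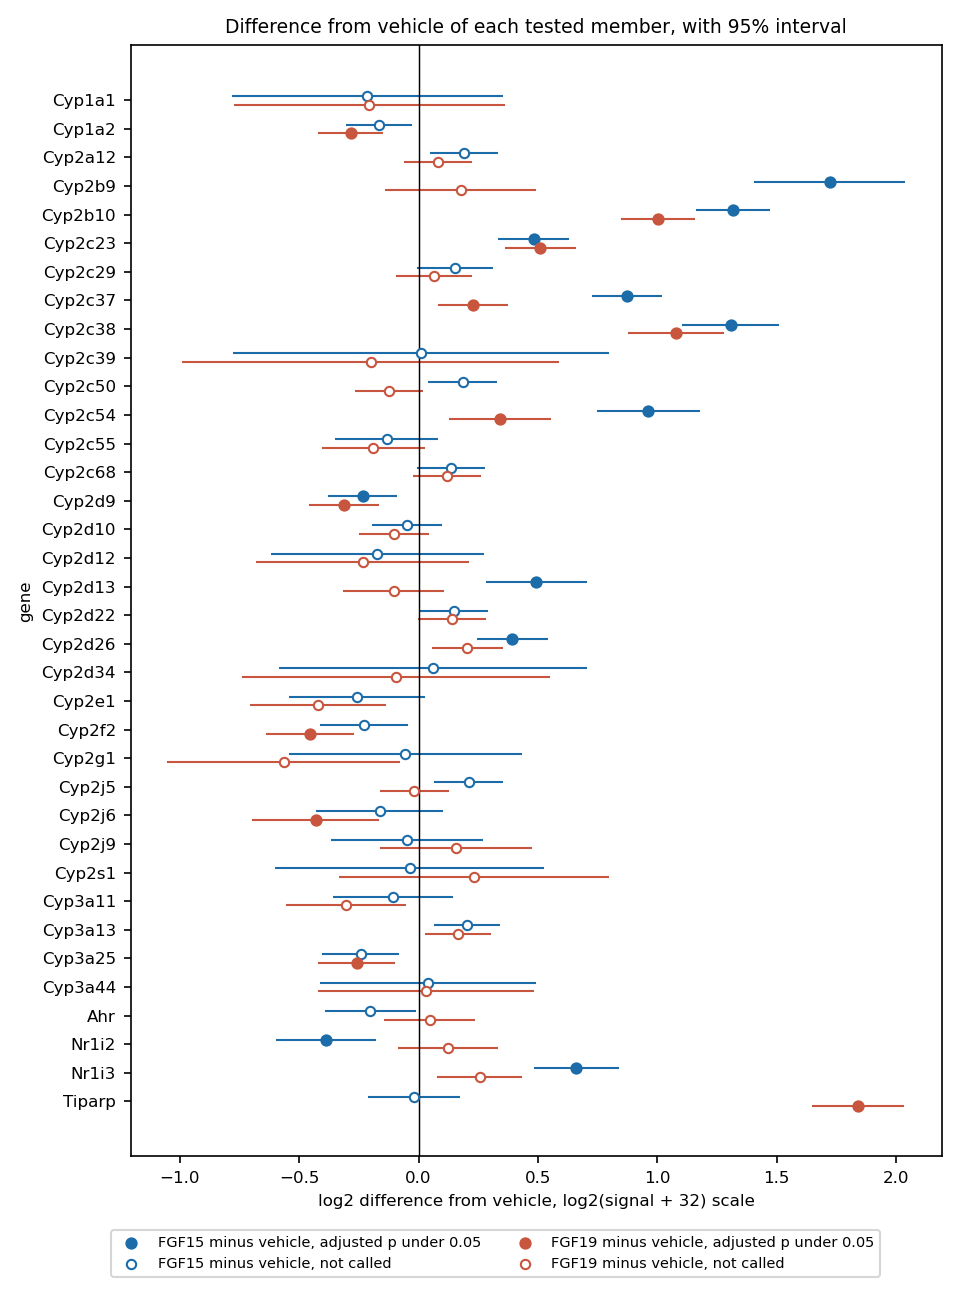
Difference from vehicle on the log2(signal + 32) scale (horizontal axis) of each tested member with FGF15 and FGF19; lines are 95% intervals and filled points passed an adjusted p of 0.05. Cyp2b9 is at 1.72 with FGF15 and 0.18 with FGF19, and Tiparp at −0.02 and 1.84.

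Genes related to these P450s were counted in lists outside the members. Beside each count stand the shares of all genes tested. These were 5.87% higher and 6.64% lower with FGF15, and 6.27% higher and 7.26% lower with FGF19. Between the hormones they were 2.4% higher and 1.89% lower. The medians over all genes given next hold for every list below. Of 23 targets of CAR and PXR that were tested, 5 rose and 5 fell with FGF15 and 10 rose and 3 fell with FGF19, with medians of 0.03 and 0.07 beside −0.05 and −0.07 over all genes. Between the hormones 4 were higher with FGF19 and 0 lower (limma, 1 lower at an unadjusted p under 0.05, and 1 lower by limma after quantile normalization or without FGF19 replicate 2). Gsta2, a glutathione transferase, rose from a mean of 321.6 ± 0.66 (SD, n = 2) with vehicle to 983.5 ± 9.58 with FGF15 and 1235 ± 42.6 with FGF19. Gsta4 rose by 0.65 and 1.23 and Abcc3, an export pump of conjugates, by 0.79 and 0.84. Alas1, the rate-limiting enzyme of heme synthesis and a CAR and PXR target, fell by 0.53 with FGF15 and by 0.42 with FGF19. The count that rose with FGF19 was 6 without vehicle replicate 2, and the count that fell with FGF15 was 3 without either vehicle array.

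Of 7 AHR targets outside the P450s that were tested, 1 rose and 1 fell with FGF15 and 2 rose and 1 fell with FGF19, with medians of 0.14 and 0.18, and none was called between the hormones by limma (1 was higher and 0 lower at an unadjusted p under 0.05). Cd36, a fatty acid transporter, rose by 1.33 with either hormone. Xdh, xanthine dehydrogenase, rose by 0.30 with FGF19 (adjusted p = 0.0143), and Ugdh, which makes UDP-glucuronic acid, fell by 0.48 and 0.37. Counts of these few genes moved between 1 and 2 when single arrays were left out, and after centring 2 rose with FGF15 and 0 fell with FGF19.

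Of 15 tested genes of heme synthesis and of electron transfer to P450s, 1 rose and 5 fell with FGF15 and 1 rose and 4 fell with FGF19, with medians of 0.01 and −0.11. Cpox, an enzyme of heme synthesis, rose by 0.60 with FGF15 and differed by −0.06 with FGF19. Hmox1, which degrades heme and is strong in Kupffer cells, fell by 1.09 with FGF15 and differed by −0.24 with FGF19. Without vehicle replicate 1, 3 fell with FGF15, and leaving out single arrays gave 1 to 4 that fell with FGF19. The 1 that rose with FGF19 was 0 without either vehicle array or without FGF19 replicate 1, and after centring 3 rose with FGF15 and 2 rose and 2 fell with FGF19.

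Of 18 partners and co-regulators of CAR, PXR and AHR that were tested, 3 rose and 5 fell with each hormone, with medians of −0.03 and −0.18. Ppargc1a, a coactivator of fasting, had means of 201.0 ± 3.81 with vehicle, 30.3 ± 0.908 with FGF15 and 120.9 ± 13.6 with FGF19 (SD, n = 2), a fall of 1.90 with FGF15 and of 0.61 with FGF19. Nr0b2, the repressor SHP, rose by 1.02 and 1.03, and Nr1h4, the bile acid receptor FXR, fell by 0.29 and 0.87. Leaving out single arrays gave 2 to 4 that fell with FGF15 and 3 to 5 with FGF19, and 1 to 3 that rose with FGF15.

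Since Cyp2b9 is female-biased and Cyp2d9 male-biased, other sex-biased liver genes were counted. Of 10 female-biased genes tested, 3 rose and 3 fell with FGF15 and 5 rose and 3 fell with FGF19, with medians of 0.18 and 0.46. Acot3, an acyl-CoA thioesterase, rose by 2.22 with FGF15 and by 1.13 with FGF19, and Hamp2, a hepcidin gene, by 0.94 and 0.98. The female-biased genes that fell were Ntrk2, Sult1e1 and Cux2 with FGF15, and Ntrk2, Trim24 and Cux2 with FGF19. Sult1e1 rose with FGF19, where Cyp2b9 was not called. Of 14 male-biased genes tested, 1 rose and 9 fell with FGF15 and 2 rose and 10 fell with FGF19, with medians of −0.43 and −0.68. Hsd3b5, a steroid dehydrogenase, fell by 1.41 and 1.86, Cyp7b1, an oxysterol hydroxylase, by 1.16 and 1.21, and Ugt2b38, a glucuronosyltransferase, by 1.46 and 1.67. When single arrays were left out, 7 to 10 male-biased genes fell with FGF15 and 8 to 10 with FGF19, 1 to 3 female-biased genes fell with FGF15 and 0 to 2 with FGF19, and 0 female-biased genes fell with FGF19 after centring. The count of male-biased genes that rose with FGF15 was 0 without either vehicle array or without FGF15 replicate 2, and 2 after centring. The count that rose with FGF19 was 0 without either vehicle array and 1 without either FGF19 array.

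Several P450s are zoned in the liver lobule, so markers of zones outside the members were counted too. Of 14 pericentral markers tested, 2 rose and 2 fell with FGF15 and 0 rose and 6 fell with FGF19 (limma, 2 higher at an unadjusted p under 0.05, and 2 higher by limma after centring or quantile normalization), with medians of 0.11 and −0.31. Tbx3, a transcription factor, rose by 0.71 with FGF15 and fell by 0.48 with FGF19. Gulo, an enzyme of ascorbate synthesis, fell by 0.33 and 0.47, and Slc13a3, a dicarboxylate transporter, by 0.66 and 0.44. With FGF15, 1 rose without either vehicle array or without FGF15 replicate 2 and 4 rose after quantile normalization, and 1 fell without either vehicle array or after centring. With FGF19, 1 to 6 fell when single arrays were left out and 1 fell after centring. Of 14 periportal markers tested, 0 rose and 4 fell with either hormone (limma, 0 higher at an unadjusted p under 0.05), with medians of −0.12 and −0.20. Cdh1, E-cadherin, fell by 1.31 and 1.04, G6pc, the glucose-releasing phosphatase, by 1.32 and 0.99, and Aldh1b1, a mitochondrial aldehyde dehydrogenase, by 0.96 and 0.52. With FGF19, 2 fell without vehicle replicate 2 and 8 without FGF19 replicate 2.

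**Figure D5:**
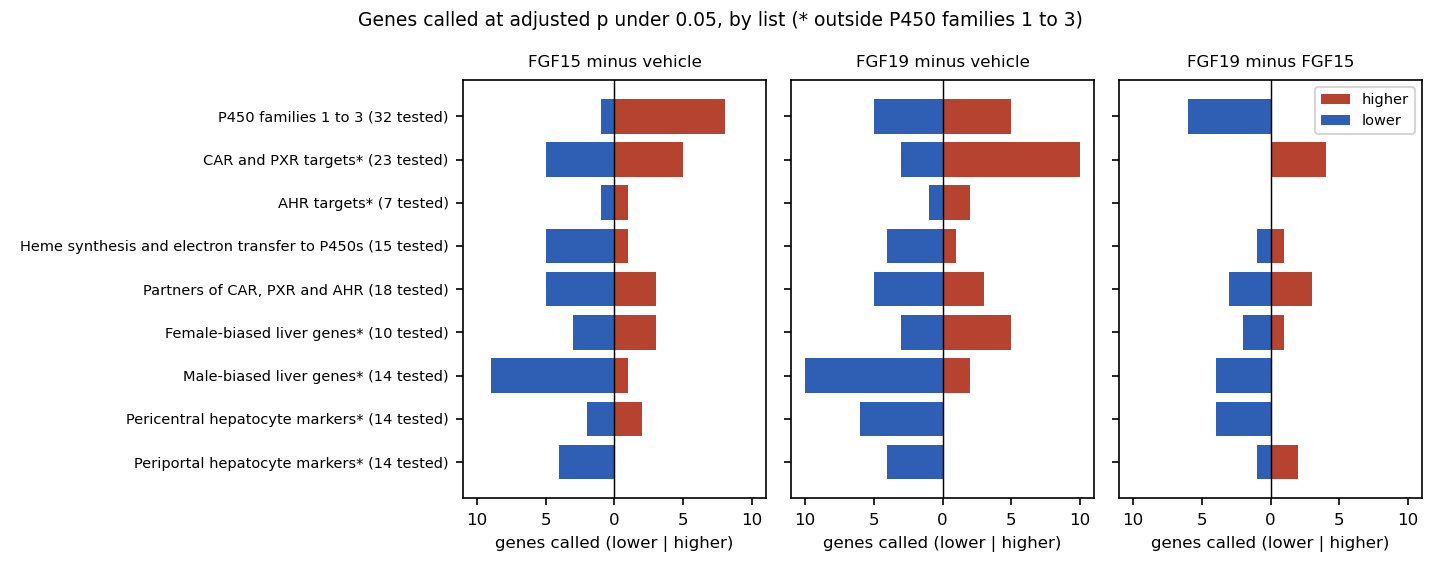
Number of genes called at an adjusted p under 0.05 (horizontal axes, lower to the left and higher to the right) for the P450 genes and each related list, in the 3 comparisons. The P450 genes have 8 higher with FGF15 and 6 lower with FGF19 than with FGF15, and of the male-biased genes 9 and 10 fell with FGF15 and FGF19.

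The hepatocyte markers Alb, Apoa1 and Ttr and the other 9 of the list were all above the filter. For the counts of markers that follow, 12.5% of all genes tested were called with FGF15 and 13.5% with FGF19. Of 13 Kupffer cell and macrophage markers tested, 11 fell with FGF15 and 10 with FGF19, and the summed signal of the 13, none of them under the filter, was 6990 and 6918 with vehicle, 3847 and 3952 with FGF15 and 3838 and 3777 with FGF19. Their part in the values above, such as that of Hmox1, was not tested. Of 14 endothelial markers 1 fell with FGF15, and by limma 0 were called with FGF19, where 2 were lower at an unadjusted p under 0.05. Of 12 stellate markers 3 fell with FGF15 and 2 with FGF19, and of 6 neutrophil markers 2 and 1 fell. Among 3 cholangiocyte and 7 lymphocyte markers tested none was called by limma, and 0 passed at an unadjusted p under 0.05. The erythroid list had 2 tested genes, of which Alas2, the erythroid enzyme that opens heme synthesis, rose by 0.41 with FGF19 (limma, adjusted p = 0.0175), and 3 of its 5 genes with a probe set, Hba-a1 among them, were under the filter. A list for carried-over intestine, pancreas or fat also had 2 tested genes. Fabp2, the intestinal fatty acid-binding protein, had means of 422.6 ± 2.67 with vehicle, 1228 ± 153 with FGF15 and 1189 ± 48.7 with FGF19 (SD, n = 2) and rose by 1.47 and 1.43 (limma, adjusted p = 4.88e-06 and 5.29e-06). Cela1, a pancreatic elastase, fell by 0.36 with FGF19 (limma, adjusted p = 0.0236). The other 6 genes of that list with a probe set, among them the intestinal markers Vil1 and Lct, were under the filter.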

How the data were processed

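Signal intensities deposited by the authors, 1 per probe set on a linear scale, were used as given. Per the labels, total RNA was extracted with Stat-60 and labelled with biotin. The software that made the signals is not given in the sources used here; by the values, each deposited array had been scaled to the same mean after trimming 2% at each end. Groups come from the titles. The array held 22690 probe sets, 64 of them controls. A single gene stood beside 20380 probe sets in the platform annotation (20351 named through Entrez identifiers) and several beside 691.

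Each gene was represented by its probe set of highest mean. The filter dropped genes whose mean log2(signal + 32) lay below the 25th percentile of all probe sets (2701 genes, 9692 kept). limma 3.58.1 in R 4.3.3 (lmFit, eBayes with trend) fitted group means to all 6 arrays, with 3 residual and 6.82 prior degrees of freedom, tests two-sided. Precision is limited by the number of arrays, and the median SE of a log2 difference was 0.13. Same-numbered arrays share only a number (correlations of deviations −0.02 to 0.07). The steps were tested on simulated data. Figures used matplotlib 3.10.9 in Python 3.11.15.

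The members, lists, alternatives and the rule for named genes were chosen with earlier results of these data known. Named were P450 genes called in any comparison, the regulators, Cyp2b9, Cyp2b10 and Cyp2b13, P450 genes of high signal, and members whose probe sets disagree. From each list, up to 3 genes called against vehicle were named, those of smallest p in these data. They do not stand for the whole list. The other members, Sult1e1, Gadd45b, Ntrk2, Cux2, Trim24, the promoters shown and their motifs were chosen after their values were seen. Promoters come from RefSeq GRCm38.p6, for 34 of the 42 members. Alternatives changed the pseudocount, scaling, filter, probe set rule, variance prior, arrays fitted, replicate block and threshold, or left out an array. The filter percentile without the controls was added after the data were seen.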

Additional observations from a re-analysis of the deposited data

Results flagged for a closer look

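The effects of FGF15 and FGF19 differed by the test of the difference itself (limma, FGF19 minus FGF15, log2 scale) for 9 of the 36 members tested. Of all genes tested, 4.29% were called in that comparison. The value was −0.31 for Cyp2b10, −1.54 for Cyp2b9, −0.65 for Cyp2c37, −0.31 for Cyp2c50, −0.62 for Cyp2c54 and −0.60 for Cyp2d13. It was 0.51 for Nr1i2, −0.40 for Nr1i3 and 1.86 for Tiparp. The FGF15 and FGF19 arrays lay on opposite sides of vehicle for Cyp2c50 and Nr1i2. For Cyp2b10 and Cyp2d13 the difference was called on the representative probe set only, and not on their other probe sets.

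The difference was also called, beside 4.29% of all genes tested, for 13 further genes picked from the related lists. It was −1.08 for Acot3, 0.44 for Aldh1b1, 0.32 for G6pc, 0.32 for Gsta2, 0.59 for Gsta4, 0.85 for Hmox1, −0.45 for Hsd3b5, −0.58 for Nr1h4 and 1.29 for Ppargc1a. For 4 genes the arrays lay on opposite sides of vehicle: −0.66 for Cpox, 1.24 for Gadd45b, 1.78 for Sult1e1 and −1.19 for Tbx3. Sult1e1, the estrogen sulfotransferase, had mean signals of 58.1 with vehicle, 25.4 with FGF15 and 165.8 with FGF19, and Gadd45b, a stress-response gene and CAR target, 88.2, 48.0 and 156.7. Both stand in the list of CAR and PXR targets, and Sult1e1 stands in that of female-biased genes too. Sult1e1 and Gadd45b were picked after their values were seen, and the others by their p-values against vehicle. The count of 13 thus says nothing about the lists.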

How the results depend on the processing

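The rises of Cyp2b10, Cyp2c23 and Cyp2c38 with either hormone, of Cyp2b9, Cyp2c37, Cyp2c54 and Nr1i3 with FGF15 and of Tiparp with FGF19 kept their calls in all 17 alternatives. No called value of a tested member, or of a list gene named by the rule, reversed in them. The count of P450 genes higher with FGF15 was 8. It was 13 after centring and with only the 4 arrays compared, and 6 to 13 when single arrays were left out. The count lower with FGF15 was 1. It was 0 after centring, with no filter, with all probe sets and with a variance prior without trend, 2 with a stricter filter and at a threshold of 0.10, 5 with only the 4 arrays compared, and 0 to 5 when single arrays were left out. The count higher with FGF19 was 5. It was 9 after centring, 3 with no filter, with all probe sets and without the trend, and 3 to 4 when single arrays were left out. The count lower with FGF19 was 5. It was 3 after quantile normalization and with no filter, 1 after centring, 0 without the trend, and 0 to 6 when single arrays were left out. The count lower with FGF19 than with FGF15 was 6, was 2 without the trend and 4 to 8 when single arrays were left out. With the replicate block, which pairs arrays only by number, 2 P450 genes fell with FGF15. Taking the filter percentile without the controls, chosen after seeing the data, changed no call of a member. A group left with 1 array is assumed to vary like the others, and the cause of these changes was not tested.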
